A study of Mus musculus with 32 samples.

Results

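This report describes 10 genes of the Toll-like receptor (TLR) system in RNA sequencing of mouse cortical neuron cultures. The genes were taken by name from a table of 49671 genes: the endosomal receptors Tlr3, Tlr7, Tlr8, Tlr9 and Tlr13, the cell surface receptors Tlr2 and Tlr4, the chaperone Unc93b1, and the signalling components Myd88 and Irak4. No expression value was a criterion of the choice, though earlier results of these data were known when it was made. The samples were 32 libraries of polyadenylated RNA from cortical neurons labelled as wild type (WT), which were either left untreated or exposed to 1 of 3 synthetic oligoribonucleotides. These were Mut.oligo, miR-92a-1-5p and, as another miRNA, miR-124-5p, each at 6 h and at 5 d. Each of the 8 groups held 4 biological replicates. The cultures came from the forebrain of C57BL/6 embryos, and Mut.oligo is a mutated let-7b sequence that served as the sequence control. They are not purified neurons, so that glia can be present, and in such bulk libraries fewer cells of a type and less RNA per cell cannot be told apart. The comparisons asked whether the genes of RNA sensing were detected in these cultures, whether their levels moved with the oligoribonucleotides, and whether they followed Csf1r, which encodes the growth factor receptor on which microglia depend.

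Toll-like receptors are pattern recognition receptors of innate immune cells. TLR3 senses double-stranded RNA, TLR7 and TLR8 single-stranded RNA, TLR13 a bacterial ribosomal RNA in mice, and TLR9 unmethylated CpG DNA, all of them in endosomes, to which UNC93B1 escorts them. TLR2 senses lipoproteins and TLR4 lipopolysaccharide at the cell surface. All of these receptors except TLR3 signal through the adaptor MYD88 and the kinase IRAK4. In the brain, microglia carry most of these receptors, while TLR3 is also known from astrocytes and neurons. The study cites earlier work for TLR7 and TLR8 in neurons too.

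Single-stranded RNA was what these cultures received, so the mature sequence of miR-92a-1-5p is shown with the let-7b sequence from which Mut.oligo was derived. Both are mouse RefSeq entries (GRCm38.p6) with the seed, bases 2 to 8, in capitals. They lie on the forward strand, at chr14:115044437-115044459 and at chr15:85707325-85707346.
mmu-miR-92a-1-5p: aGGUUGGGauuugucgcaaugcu
mmu-let-7b-5p: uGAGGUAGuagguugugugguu
The seeds differ. Of the 23 bases of miR-92a-1-5p, 8 are G and 8 are U, and of the 22 bases of let-7b, 10 are G and 9 are U. These libraries include none exposed to let-7b, and its base counts are not those of Mut.oligo. Sequences of miR-124-5p and Mut.oligo are not shown here.

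Library totals ranged from 24514090 to 73626029 gene counts, with a median of 33021610 at 6 h and of 50126395 at 5 d. Libraries were spread over 7 experiment batches at 6 h and 6 at 5 d, as the labels name them, and none held libraries of both times. All 19 neuronal markers passed the filter of at least 5 counts in at least 3 libraries at both times. Their summed level lay between 8898 and 12834 CPM (gene counts scaled to the library total). Of 22 microglial markers, 21 passed it at both times, Siglech with 0 to 3 counts in any library being the exception. The microglial sum without Sall1, which alone reached 15.4 to 34.9 CPM, lay between 27.6 and 62.4 CPM in untreated cultures at 6 h. Markers of astrocytes (10 of 10) also passed. Of the 11 markers of border macrophages and blood cells, 4 passed at 6 h and 6 at 5 d. Csf1r itself had 34 to 91 counts at 6 h and 76 to 200 at 5 d.

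All 10 genes passed the filter at both times, but at very different depths of counting. Tlr7, the receptor for single-stranded RNA, had at least 13 counts in every library, with 13 to 42 at 6 h and 36 to 78 at 5 d. Tlr3 had 19 to 136 counts at 6 h and 154 to 351 at 5 d. Tlr13 had 6 to 26 and 16 to 76. Tlr8 and Tlr9 were at the limit of detection at 6 h. Tlr8 had 0 to 7 counts there and reached 5 counts in 3 of 16 libraries, and Tlr9 had 0 to 8 counts and reached 5 in 6 of 16. In 1 library, miR-124-5p at 6 h replicate 3, both were at 0, which allows up to 3 counts or 0.0750 CPM. At 5 d Tlr8 had 3 to 31 counts and Tlr9 had 9 to 25. Of the surface receptors, Tlr2 had 16 to 67 and 43 to 177 counts, and Tlr4 had 3 to 20 and 13 to 63. Unc93b1 (61 to 175 at 6 h, 80 to 188 at 5 d), Myd88 (75 to 280 and 167 to 350) and Irak4 (9 to 45 and 28 to 93) were detected in every library. Intervals and limits of this kind cover counting error only.

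**Figure D1:**
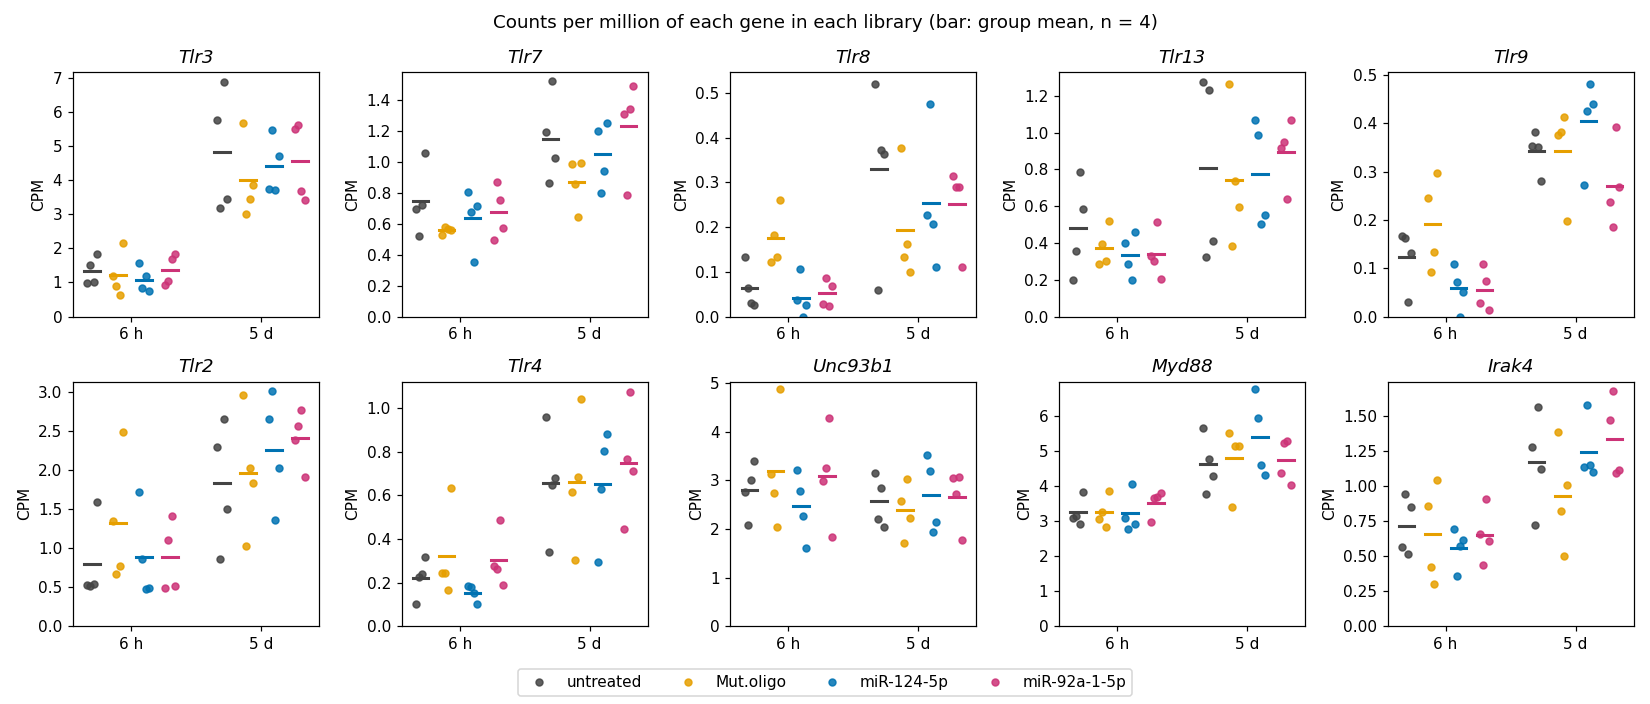
CPM (vertical axis, linear from 0) of the 10 genes in each of the 32 libraries, grouped by time (horizontal axis) and coloured by condition. Each point is 1 library and each bar the mean of 4. Tlr8 and Tlr9 sit near 0 at 6 h, and within a time the conditions overlap in nearly every panel.

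Levels per length, in RPKM (counts scaled to the library total and to the length of the merged exons), put Myd88 highest and Tlr8 lowest in untreated cultures at both times. At 6 h, Myd88 was at 1.26 ± 0.157 RPKM (SD, n = 4) and Unc93b1 at 0.927 ± 0.183, and the ranges of these did not overlap each other or that of the next gene. Tlr2 (0.264 ± 0.176), Tlr3 (0.258 ± 0.0777), Tlr7 (0.184 ± 0.0553), Irak4 (0.143 ± 0.0418) and Tlr13 (0.112 ± 0.0596) followed, and each of these neighbours overlapped the next. Tlr4 (0.0399 ± 0.0163), Tlr9 (0.0353 ± 0.0182) and Tlr8 (0.0177 ± 0.0137) closed the order and overlapped likewise. At 5 d Tlr3 stood second, at 0.925 ± 0.344 RPKM, after Myd88 at 1.79 ± 0.311, and these 2 did not overlap. Below Tlr3, every neighbour overlapped the next, from Unc93b1 (0.847 ± 0.173) and Tlr2 (0.608 ± 0.267) through Tlr7 (0.282 ± 0.0692), Irak4 (0.233 ± 0.0697) and Tlr13 (0.188 ± 0.119) to Tlr4 (0.118 ± 0.0453), Tlr9 (0.0983 ± 0.0124) and Tlr8 (0.0918 ± 0.0539). Csf1r lay at 0.282 RPKM at 6 h and 0.447 RPKM at 5 d. Over all 16 libraries of a time, the median of Tlr7 stood at percentile 27.2 of 18399 protein-coding genes with a count at 6 h and at percentile 29.9 of 18481 at 5 d, and Myd88 at percentiles 41.7 and 45.6.

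**Figure D2:**
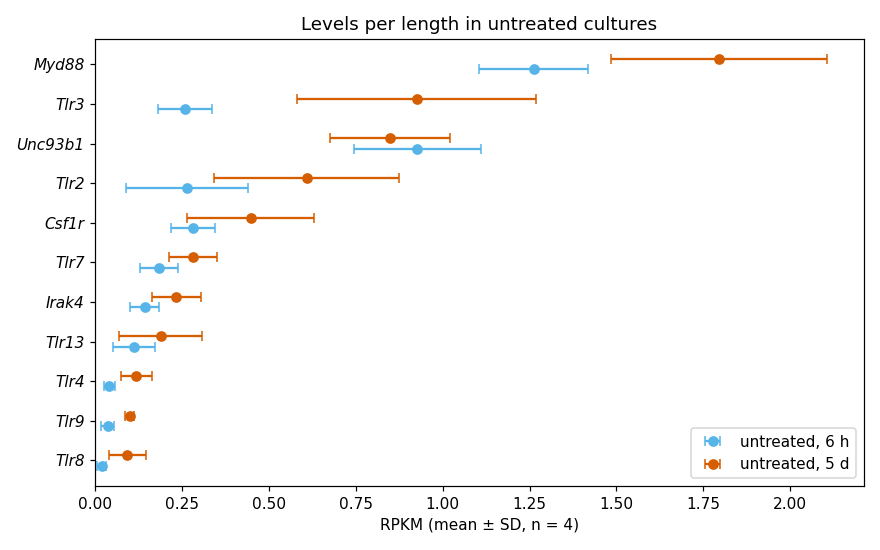
Mean RPKM with SD (horizontal axis, linear from 0) of the 10 genes and Csf1r in untreated cultures, 4 libraries at 6 h and 4 at 5 d. Myd88 is highest at both times, and Tlr3 moves from 0.258 to 0.925.

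The genes lie on several chromosomes of GRCm38 (GENCODE gene models). Tlr7 (chrX:167304929-167330558) and Tlr8 (chrX:167242696-167264329) are neighbours on the reverse strand of the X chromosome. Tlr13 lies farther away on the same chromosome (chrX:106143204-106160493, forward). Tlr3 is at chr8:45395665-45411080 and Tlr2 at chr3:83836272-83841767, both reverse. Irak4 is at chr15:94543643-94581815, forward. No exon of the 10 genes overlapped a gene on the same strand, and the counting was stranded.

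Tlr7 was described in every library because it is the receptor that single-stranded RNA engages in mice. In untreated cultures at 6 h it was at 0.697, 0.519, 0.724 and 1.06 CPM. With miR-92a-1-5p it was at 0.495, 0.871, 0.757 and 0.570 CPM, and with miR-124-5p at 0.804, 0.680, 0.350 and 0.716 CPM. With Mut.oligo the 4 libraries were close together, at 0.530, 0.577, 0.568 and 0.558 CPM. All 3 ranges overlapped that of untreated cultures. At 5 d, untreated cultures were at 1.19, 0.865, 1.52 and 1.02 CPM. The miR-92a-1-5p libraries were at 1.31, 0.786, 1.34 and 1.49 CPM and the miR-124-5p libraries at 1.20, 0.799, 0.941 and 1.25 CPM. Mut.oligo libraries were at 0.989, 0.859, 0.647 and 0.991 CPM. Again the groups overlapped.

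By the quasi-likelihood test of edgeR, with p-values adjusted over all genes tested by the method of Benjamini and Hochberg, no gene of the 10 was called (adjusted p below 0.05 and a log2 fold change beyond 0.5) with any of the 3 oligoribonucleotides at 6 h or at 5 d, nor in any of the 4 comparisons with Mut.oligo. The background was as low. Of 18755 genes tested at 6 h 0% were called in each comparison, and of 19333 tested at 5 d 0.00517% with miR-92a-1-5p, which is 1 gene, and 0% in the others. Over the 13 comparisons with an oligoribonucleotide, including the 3 of the effect at 5 d against that at 6 h (0% of 20425 genes called), 130 tests of the 10 genes gave 8 unadjusted p below 0.05, and the smallest adjusted p was 0.485. For Tlr7 the log2 fold change against untreated was -0.17 with miR-92a-1-5p at 6 h (95% interval -0.74 to 0.40), -0.26 with miR-124-5p (-0.85 to 0.33) and -0.43 with Mut.oligo (-1.04 to 0.17). At 5 d it was 0.13 (-0.35 to 0.61), -0.12 (-0.60 to 0.36) and -0.36 (-0.84 to 0.12) in the same order. At 6 h the intervals reached down to -1.04, and they do not show that the conditions were alike.

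**Figure D3:**
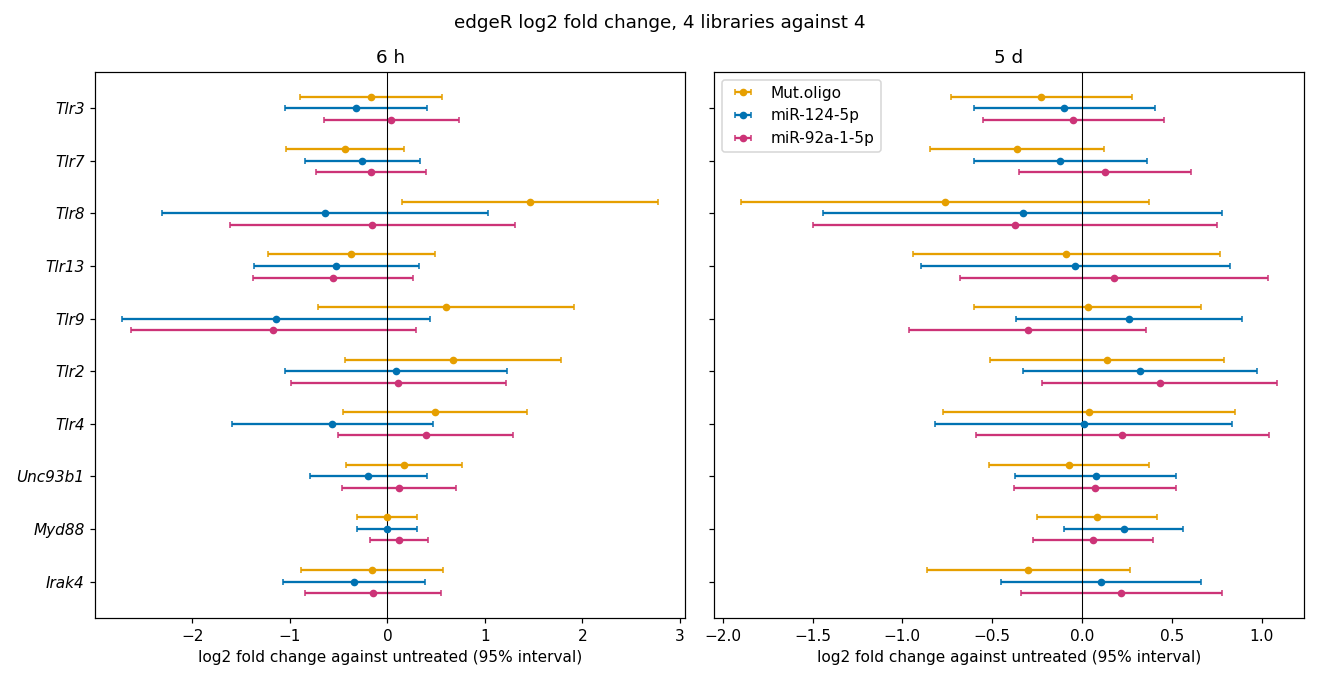
Log2 fold change against untreated cultures (horizontal axis) of the 10 genes with 3 oligoribonucleotides at 6 h and 5 d, from edgeR, with 95% intervals as bars. The interval of Tlr8 with Mut.oligo at 6 h, 0.15 to 2.77, is the one that does not hold 0, and no adjusted p passed the threshold. Tlr8 passed the filter at 6 h mainly through Mut.oligo.

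Tlr8 and Tlr9 rested on the fewest counts at 6 h. Tlr8 in cultures at 6 h was at 0.122, 0.182, 0.134 and 0.260 CPM with Mut.oligo, and at 0.133, 0.0649, 0.0302 and 0.0265 CPM without treatment. Its log2 fold change was 1.46 (SE 0.62, unadjusted p = 0.0312, adjusted p = 0.485 in edgeR). The miR-92a-1-5p libraries, at 0.0275, 0.0871, 0.0244 and 0.0679 CPM, and the miR-124-5p libraries, at 0.0365, 0.107, 0 and 0.0256 CPM, lay wholly below those with Mut.oligo. Against Mut.oligo the log2 fold changes of Tlr8 were -1.62 (SE 0.58, unadjusted p = 0.0133) and -2.10 (SE 0.68, unadjusted p = 0.00646), with adjusted p of 1.00 in edgeR. Of 100 pairs of a gene and a comparison these were the 2 without overlap. The share without overlap over all genes was not taken, so the count does not set Tlr8 apart. These values rest on 0 to 7 counts a library. Tlr8 passed the filter at 6 h mainly through Mut.oligo. Its highest count in a library was 7 there, 5 with miR-92a-1-5p, 4 without treatment and 3 with miR-124-5p. Its p-values at 6 h that involve Mut.oligo are therefore not independent of the filter and give no support. At 5 d the direction of Mut.oligo against untreated was the opposite (log2 fold change -0.76, SE 0.54). The difference between the times was -2.21 (SE 0.89, unadjusted p = 0.0188, adjusted p = 0.857 in edgeR).

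Tlr9, the CpG DNA receptor, was at 0.245, 0.0912, 0.134 and 0.298 CPM with Mut.oligo at 6 h. It was at 0.0275, 0.109, 0.0733 and 0.0136 CPM with miR-92a-1-5p and at 0.110, 0.0715, 0 and 0.0512 CPM with miR-124-5p. The groups overlapped, with log2 fold changes against Mut.oligo of -1.77 (SE 0.66, unadjusted p = 0.0165) and -1.74 (SE 0.71, unadjusted p = 0.0263). Tlr4 with miR-124-5p was at 0.183, 0.179, 0.150 and 0.102 CPM and with Mut.oligo at 0.245, 0.243, 0.167 and 0.632 CPM, a log2 fold change of -1.05 (SE 0.47, unadjusted p = 0.0402), which was -0.53 without Mut.oligo replicate 4 (unadjusted p = 0.267). At 5 d, Tlr7 with miR-92a-1-5p against Mut.oligo gave 0.49 (SE 0.23, unadjusted p = 0.0492). None of these passed the adjustment, and the adjusted p was 1.00 for each.

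Markers of other cells were examined in the same libraries. In Mut.oligo cultures at 6 h, 21 of the 21 microglial markers tested had a positive log2 fold change against untreated, with a median of 0.31, against a median of 0.00 over all genes, and none was called. The 7 markers of mural cells and fibroblasts were also all positive (median 0.57), none was called, and their sum ranged from 74.5 to 211 CPM against 32.3 to 128 CPM. Csf1r was at 0.42, and at -0.02 with the experiment batch as a covariate. At 5 d, 2 of the 21 microglial markers were positive in the same comparison (median -0.17). The part of these cells in the values of Tlr8, Tlr9 and Tlr4 was not tested. The 10 genes had a median of 0.08 with Mut.oligo at 6 h (5 positive), -0.05 with miR-92a-1-5p (5 positive) and -0.33 with miR-124-5p (1 positive). At 5 d the medians were -0.08 (4 positive), 0.10 (7 positive) and 0.04 (6 positive), in the same order.

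Batches were shared only in part, so each comparison was repeated with the experiment batch as a covariate and within batches. With the covariate, edgeR called 0.208% of all genes with miR-92a-1-5p, 0% with miR-124-5p and 0.0213% with Mut.oligo at 6 h, and 0.352%, 0.0259% and 0.0466% at 5 d, and again none of the 10. The values of Tlr8, Tlr9 and Tlr4 at 6 h that had an unadjusted p below 0.05 became smaller. Other values of these genes did not all do so, as Tlr4 with miR-124-5p against untreated went from -0.56 to -0.90. Tlr8 with Mut.oligo was then at 0.76 (unadjusted p = 0.327), and against Mut.oligo it was at -0.99 with miR-92a-1-5p (unadjusted p = 0.182) and at -0.87 with miR-124-5p (unadjusted p = 0.263). Tlr9 against Mut.oligo was at -1.30 (unadjusted p = 0.0815) and -0.44 (unadjusted p = 0.569) in the same order, and Tlr4 with miR-124-5p against Mut.oligo at -0.59 (unadjusted p = 0.268). The difference of Tlr8 with Mut.oligo between the times was -1.53 (unadjusted p = 0.0951), and Tlr7 with miR-92a-1-5p against Mut.oligo at 5 d was 0.43 (unadjusted p = 0.0808). Other values passed an unadjusted p of 0.05 with the covariate only. Unc93b1 had a log2 fold change of -0.48 with miR-124-5p (unadjusted p = 0.0110) and -0.43 with Mut.oligo (unadjusted p = 0.0219) at 6 h, where it was -0.20 and 0.17 without the covariate, and of 0.54 with miR-92a-1-5p against Mut.oligo (unadjusted p = 0.00442, adjusted p = 1.00). Tlr3 was at -0.53 with Mut.oligo (unadjusted p = 0.0259) and 0.57 with miR-92a-1-5p against Mut.oligo (unadjusted p = 0.0165). Irak4 was at 0.48 with miR-92a-1-5p against Mut.oligo at 5 d (unadjusted p = 0.0336). Within the batches shared with untreated cultures, Unc93b1, Tlr3, Tlr7 and Myd88 were lower in 2 of 2 with miR-124-5p and in 2 of 2 with Mut.oligo at 6 h. Tlr13 and Tlr4 were also lower in 2 of 2 with miR-124-5p, and Tlr8 was higher in 2 of 2 with Mut.oligo. With miR-92a-1-5p, Tlr9 was lower in 4 of 4, and Tlr7 was lower in 2 and higher in 2 of 4. At 5 d Tlr2 was higher in 3 of 3 batches with Mut.oligo, in 2 of 2 with miR-124-5p and in 2 of 2 with miR-92a-1-5p. Tlr13 was higher in 3 of 3 with Mut.oligo, and Tlr8 was lower in 2 of 2 with each miRNA. Tlr9, Unc93b1 and Myd88 were higher in 2 of 2 with miR-124-5p and lower in 2 of 2 with miR-92a-1-5p. These comparisons share the untreated libraries, and none of the values passed the adjustment. The share of all genes with the same sign in every shared batch was not taken. The difference of Tlr7 in these pairs at 6 h ranged from -0.94 to 0.30 on the log2 scale.

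In untreated cultures 6 of the 10 genes were higher at 5 d than at 6 h by the same rule and none lower, where 33.5% of the 20425 genes tested were called, 19.1% of them higher at 5 d as a share of all genes. Tlr3 rose by a log2 fold change of 1.81 (SE 0.30, adjusted p = 7.49e-06). Its CPM was 0.995, 1.52, 1.03 and 1.83 at 6 h and 5.76, 3.18, 6.86 and 3.45 at 5 d, with no overlap. Tlr8 rose by 2.37 (SE 0.64, adjusted p = 0.00249), Tlr4 by 1.52 (SE 0.44, adjusted p = 0.00399) and Tlr9 by 1.46 (SE 0.46, adjusted p = 0.00834). Tlr2 rose by 1.15 (SE 0.44, adjusted p = 0.0286) and Tlr7 by 0.59 (SE 0.25, adjusted p = 0.0466). These last 2 calls were each lost without 5 of the 8 untreated libraries taken out in turn. Myd88 passed the adjustment (adjusted p = 0.00749) with a log2 fold change of 0.49, just under the minimum of 0.5. Irak4 was at 0.69 (SE 0.31, adjusted p = 0.0573) and Tlr13 at 0.71 (SE 0.41, adjusted p = 0.153). Unc93b1 was at -0.15 (SE 0.25, adjusted p = 0.643). No experiment batch held both times, so time and batch cannot be told apart.

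Markers of glia were compared between the times too. Of the 10 astrocyte markers 9 rose and none fell in untreated cultures, with a median log2 fold change of 2.06. Slc1a2, the main astrocytic glutamate transporter, rose by 2.17 and Gja1, a gap junction protein, by 2.67. Of 21 microglial markers 4 rose, Csf1r (0.63, adjusted p = 0.0391), Cx3cr1 (0.93, adjusted p = 0.0492), Laptm5 (0.70, adjusted p = 0.0257) and Ly86 (1.16, adjusted p = 0.00792), and 1 fell, Fcer1g (-0.83, adjusted p = 0.0257). Their median was 0.38, against 0.04 for all genes. The microglial share that rose was near that of all 20425 genes tested, of which 19.1% were higher at 5 d. The fold changes of Tlr3, Tlr4, Tlr8, Tlr9 and Tlr2 were larger than that of Csf1r, but the difference between genes was not tested. The part of the astrocyte and microglial markers in these values was not tested either.

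The other genes of the pathway were taken from a list of adaptors, kinases, proteases, nucleases, further receptors and targets. Of 50 listed genes, 46 were tested at 6 h and 47 at 5 d, and none was called in any comparison with an oligoribonucleotide. Against untreated at 6 h the smallest p values belonged to Cd14, Tnfaip3 and Pld3 with miR-92a-1-5p (Cd14, a coreceptor of TLR4, at 0.67, unadjusted p = 0.0216), to Ikbkb, Cd14 and Ikbkg with miR-124-5p, and to Pld3, Chuk and Rela with Mut.oligo (Pld3, an endolysosomal nuclease, at -0.22, unadjusted p = 0.00135, adjusted p = 0.295). At 5 d they belonged to Ikbkb, Chuk and Rela with miR-92a-1-5p, to Tlr6, Irak3 and Tollip with miR-124-5p (Tlr6 at -0.90, unadjusted p = 0.0304), and to Irak3, Cd36 and Irf7 with Mut.oligo. Against Mut.oligo they were Cd14, Pld4 and Ticam2 at 6 h and Cd36, Irak3 and Traf6 at 5 d for miR-92a-1-5p, and Pld3, Cd14 and Ctsk at 6 h and Tollip, Ikbke and Ly96 at 5 d for miR-124-5p. For the effects at 5 d against 6 h they were Tnfaip3, Pld3 and Chuk with miR-92a-1-5p, Ikbkb, Tlr1 and Rnaset2b with miR-124-5p, and Pld3, Irf7 and Chuk with Mut.oligo. Between the times in untreated cultures, 33.5% of all 20425 genes tested were called, and 19.1% were higher at 5 d. Of the 47 listed genes, 13 rose and 3 fell, with a median of 0.15, so the share called was near that of all genes. Those that rose were the lysosomal proteases Ctsl (0.82), Ctsb and Lgmn, the endolysosomal nucleases Pld3, Pld4 (1.57) and Rnaset2a, the transcription factors Atf3 (2.46) and Irf8 (0.67), the scavenger receptor Cd36 (2.04), the receptor Tlr5, and Hsp90b1, Irak2 and Traf3. Irf7 (-2.76), an interferon regulatory factor, Irak3 (-1.41) and the adaptor Ticam2 (-1.37) fell.

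Whether the genes followed Csf1r was asked over the 16 libraries of each time, as log2 CPM. Libraries of 1 batch may share a culture preparation, and all points share the scaling by library. At 6 h, Tlr2 (Pearson r = 0.72, permutation p = 0.00204, Spearman rho = 0.77, permutation p = 8e-04), Unc93b1 (r = 0.71, permutation p = 0.00197, rho = 0.69, permutation p = 0.00425) and Tlr4 (r = 0.61, permutation p = 0.0117, rho = 0.53, permutation p = 0.0367) rose and fell with it. Their adjusted p over the 10 relations of that time were 0.0102, 0.0102 and 0.0391. At 5 d it was Tlr2 (r = 0.79, permutation p = 0.00031, rho = 0.66, permutation p = 0.00686), Tlr13 (r = 0.77, permutation p = 4e-04, rho = 0.71, permutation p = 0.00278), Myd88 (r = 0.71, permutation p = 0.00199, rho = 0.75, permutation p = 0.00127) and Unc93b1 (r = 0.64, permutation p = 0.00662, rho = 0.69, permutation p = 0.00385), with adjusted p of 0.00200, 0.00200, 0.00663 and 0.0165. Of all other genes tested, 0.938% at 6 h and 6.67% at 5 d had an r with Csf1r as high as the lowest of these. Tlr2 and Unc93b1 were in both sets.

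The RNA receptors Tlr7 and Tlr3 were not among them. Tlr7 had r = 0.37 (permutation p = 0.163, rho = 0.42, permutation p = 0.106) at 6 h and 0.23 (permutation p = 0.403, rho = 0.15, permutation p = 0.586) at 5 d. Tlr3 had r = 0.18 (permutation p = 0.506, rho = 0.17, permutation p = 0.527) and 0.50 (permutation p = 0.0482, adjusted p = 0.0803, rho = 0.54, permutation p = 0.0353). For Tlr7 at 6 h this depended on the groups: as deviations from group means it had r = 0.59 (permutation p = 0.0165, adjusted p = 0.0413) and as deviations from batch means r = 0.16 (permutation p = 0.553). At 5 d these r were 0.21 and 0.06. The permutations of deviations did not allow for the means removed, so their p come out too small. The adjusted p of 0.0413 is therefore not read as a call. With total counts in place of TMM, Tlr3 at 5 d had r = 0.59 (permutation p = 0.0152, adjusted p = 0.0304). Irak4 had r = 0.03 and 0.30. The r of the remaining genes lay between -0.07 and 0.53.

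The relations were repeated in other settings. Without the 2 libraries farthest from the median of Csf1r at each time, none of the 7 kept an adjusted p below 0.05. The r of Tlr2 was then 0.58 at 6 h and 0.52 at 5 d, and that of Unc93b1 was 0.52 and 0.59. Those libraries were miR-92a-1-5p replicate 4 and Mut.oligo replicate 4 at 6 h and untreated replicate 2 and Mut.oligo replicate 2 at 5 d. Leaving out the ends of the range of Csf1r tends to lower r for any relation, and 14 libraries remain. The lost calls therefore do not show that few libraries made the relations. As deviations from batch means, Tlr2 gave 0.38 and 0.36 and Unc93b1 0.31 and 0.43. Myd88 at 5 d (0.77) kept its call, by permutations that did not allow for the batch means removed. Over the means of the 7 batches at 6 h, Tlr2 gave 0.92 and Unc93b1 0.95. At 6 h the 4 libraries of 1 batch, that of untreated replicate 4, had Tlr2 at 1.35 to 1.72 CPM, and the other 12 at 0.475 to 2.49 CPM with a median of 0.537.

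**Figure D4:**
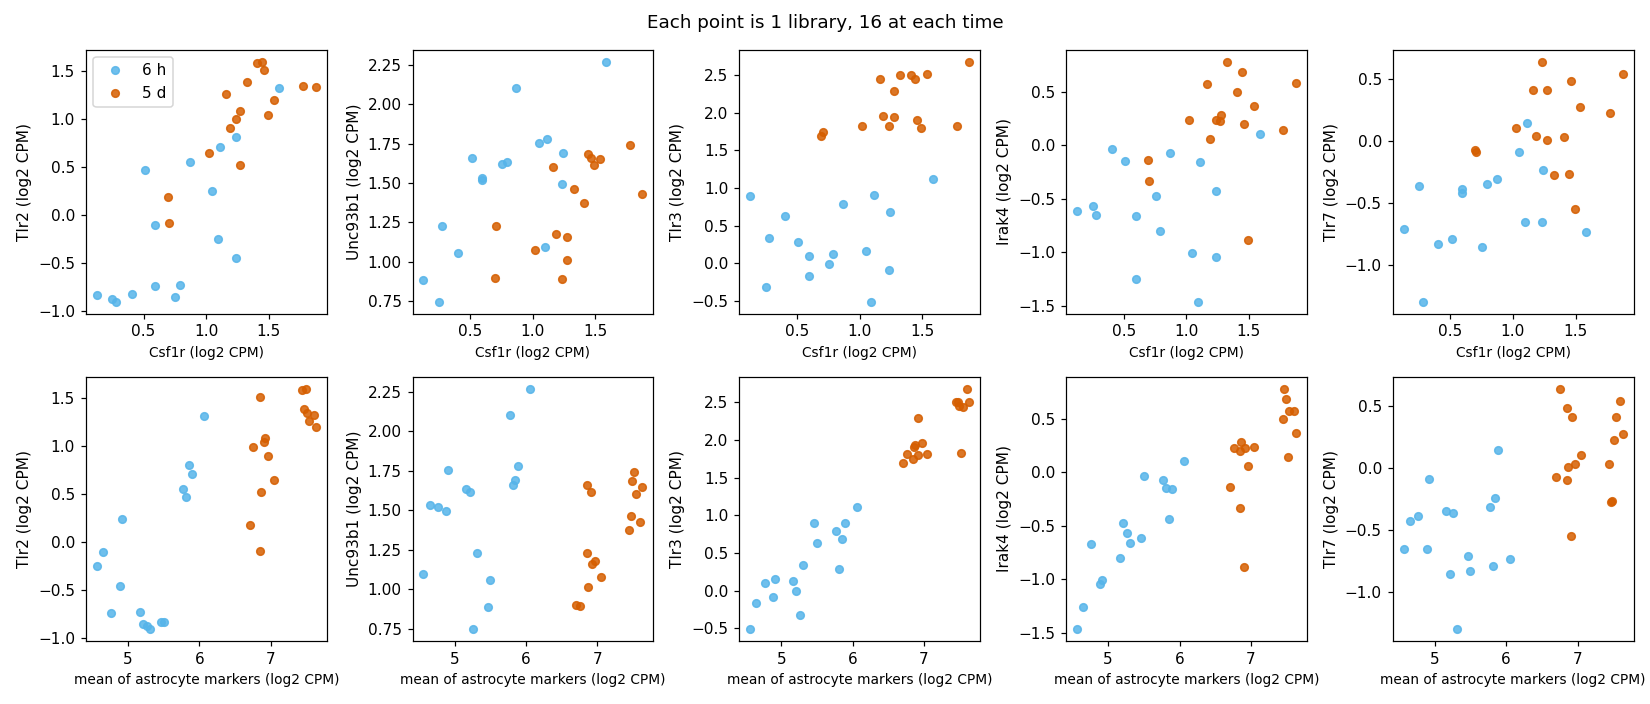
Log2 CPM of 5 genes (vertical axes) against Csf1r (top) and against the mean log2 CPM of 10 astrocyte markers (bottom), 16 libraries at 6 h and 16 at 5 d. Tlr3 and Irak4 line up with the astrocyte markers at 6 h (r of 0.84 and 0.90), while Tlr7 does so with neither.

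To see what the other genes followed, the mean of the astrocyte markers was set in place of Csf1r, a choice made after the data were seen. Tlr3 then had r = 0.84 (permutation p = 7e-05) at 6 h and 0.80 (permutation p = 0.00059) at 5 d, and Irak4 0.90 (permutation p = 1e-05, the smallest the permutations can give) and 0.63 (permutation p = 0.00451). At 5 d Tlr13 (0.74), Tlr8 (0.73), Unc93b1 (0.69), Tlr2 (0.65) and Myd88 (0.56) also passed, which made 2 of the 10 genes at 6 h and 7 at 5 d. Of all other genes tested, 2.8% at 6 h and 15.2% at 5 d had an r with the astrocyte markers as high as the lowest of these. Tlr7 had r = 0.04 and 0.07. The permutations took the 16 libraries as independent, although libraries of 1 batch may share a culture preparation. The relations with the astrocyte markers were not repeated as deviations from batch means, over batch means or without the farthest libraries. With the neuronal markers Tlr3 had r = -0.86 and -0.56, and Irak4 -0.81 and -0.41. With the mean of the 21 microglial markers Tlr2 had 0.86 and 0.68 and Unc93b1 0.81 and 0.77. Tlr4 (0.60) and Tlr9 (0.59) also passed with it at 6 h. At 5 d Tlr13 (0.75), Myd88 (0.64), Tlr3 (0.61) and Tlr8 (0.61) passed as well. That made 4 of the 10 genes at 6 h and 6 at 5 d, and the share over all genes was not taken. At 5 d the astrocyte and microglial markers moved together, since the median r of Csf1r with the 10 astrocyte markers was 0.49 there and 0.05 at 6 h, so that the 2 sets cannot be set apart at 5 d.

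**Figure D5:**
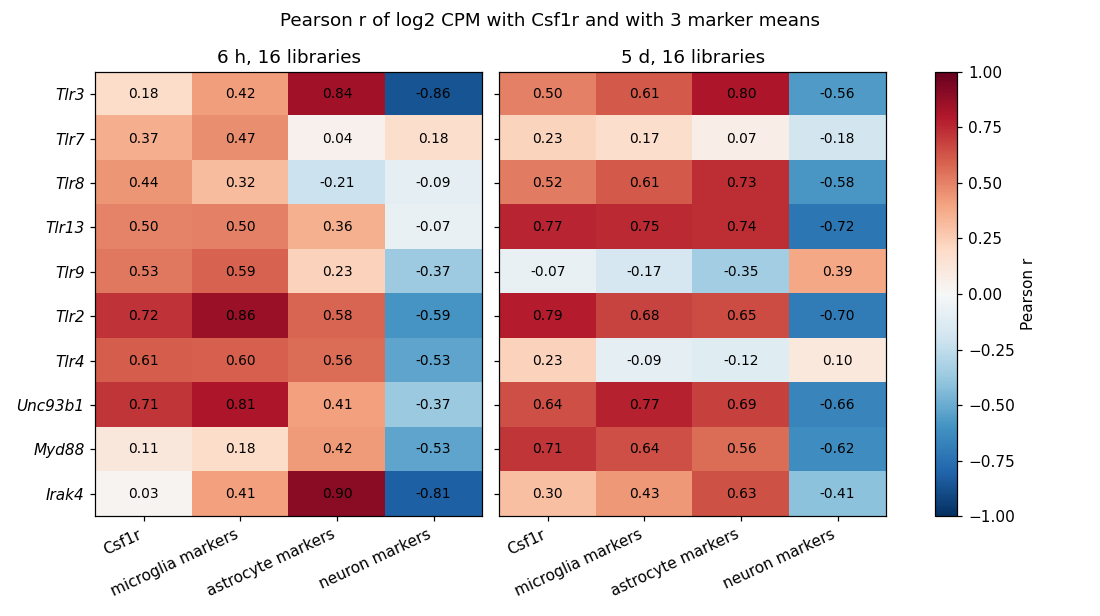
Pearson r of the 10 genes (rows) with Csf1r and with the mean log2 CPM of 3 marker lists (columns), over 16 libraries at 6 h and 16 at 5 d, red for positive and blue for negative. Tlr2 and Unc93b1 are highest for Csf1r and the microglial markers at 6 h, Tlr3 and Irak4 for the astrocyte markers.

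The genes most like 3 of the 10 were sought among 15045 protein-coding genes, by the smaller of the 2 Pearson correlations of deviations from group means at 6 h and 5 d. Those of Tlr3 were Creb3l2 (0.92), Gbp7, Il6st, Itprid2 and Parp12 (0.90), and those of Irak4 were Plce1 (0.90), Il6st, Hus1, Galnt4 and Myo6 (0.85). Il6st, the shared receptor subunit of the interleukin-6 family, is in both. Those of Tlr7 were much less alike: Nr5a2 (0.62), the immunoglobulin receptor Fcgr1 (0.56), Arhgap30, Upk1a and Bcl2a1b (0.53).

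Promoters of 7 of the 10 genes were matched in RefSeq (GRCm38.p6), from 250 bases before to 50 after the RefSeq start, which for the 4 shown lies inside the GENCODE gene. Those of Tlr2, Tlr13 and Myd88, which were related to Csf1r and to the astrocyte markers at 5 d, are shown beside that of Tlr3. Tlr3 was related to the astrocyte markers at both times. With Csf1r it did not pass the adjustment in the main setting (at 5 d r = 0.50, permutation test, adjusted p = 0.0803). The difference between these genes was not tested. All are written 5′ to 3′ on the strand of the gene. GAGGAA, a core read by the myeloid factor PU.1, was searched on both strands (TTCCTC on the other) and stands in capitals. The windows are chr3:83841559-83841858 (reverse), chrX:106143025-106143324 (forward), chr9:119339969-119340268 (reverse) and chr8:45410331-45410630 (reverse).
Tlr2: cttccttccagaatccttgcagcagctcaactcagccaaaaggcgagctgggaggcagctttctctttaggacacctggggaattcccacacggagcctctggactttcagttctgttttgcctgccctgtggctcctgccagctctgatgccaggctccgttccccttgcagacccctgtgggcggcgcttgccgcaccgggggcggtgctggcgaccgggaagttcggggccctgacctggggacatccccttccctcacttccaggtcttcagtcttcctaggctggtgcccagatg
Tlr13: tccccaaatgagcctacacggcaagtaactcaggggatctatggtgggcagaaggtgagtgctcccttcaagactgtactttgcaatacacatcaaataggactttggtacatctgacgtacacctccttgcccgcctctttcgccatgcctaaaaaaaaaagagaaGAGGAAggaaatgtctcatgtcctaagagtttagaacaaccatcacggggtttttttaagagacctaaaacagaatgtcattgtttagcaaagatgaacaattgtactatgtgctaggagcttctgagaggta
Myd88: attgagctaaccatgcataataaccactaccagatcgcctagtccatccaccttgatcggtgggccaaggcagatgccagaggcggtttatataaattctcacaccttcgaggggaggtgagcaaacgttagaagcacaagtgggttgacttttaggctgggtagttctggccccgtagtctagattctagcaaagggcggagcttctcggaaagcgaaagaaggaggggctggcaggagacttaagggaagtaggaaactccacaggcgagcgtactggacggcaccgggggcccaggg
Tlr3: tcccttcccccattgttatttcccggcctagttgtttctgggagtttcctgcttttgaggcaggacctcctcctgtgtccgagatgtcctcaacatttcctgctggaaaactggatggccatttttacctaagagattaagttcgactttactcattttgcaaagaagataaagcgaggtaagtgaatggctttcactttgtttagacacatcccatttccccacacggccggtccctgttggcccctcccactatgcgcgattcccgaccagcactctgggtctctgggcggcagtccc
Of these 4 windows only that of Tlr13 holds the letters, and of the 7 matched genes 3 do, Tlr13, Tlr8 and Tlr9. They stand in 28.3% of 32851 RefSeq promoters of the same length. A match is a description of the letters and not a site.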

How the data were processed

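Counts per gene for 32 libraries were used as the authors deposited them, in 1 table. Per the labels and the study's methods, stranded polyadenylated RNA libraries were aligned with STAR to GRCm38 and counted over exons by strand with featureCounts of Subread. Replicates were biological as labelled. The 4 libraries of every group differed by more than sampling noise, with a chi-square per degree of freedom between 4.93 and 74.1 over 48 replicate pairs. Genes reaching 5 counts in 3 or more libraries were tested with edgeR 4.0.16 (TMM, quasi-likelihood F test, Benjamini-Hochberg over all genes tested), the 4 groups of a time in 1 fit and all 32 libraries for differences between times. A call needed an adjusted p below 0.05 and a log2 fold change beyond 0.5. The 95% intervals come from the same fit. CPM divides by the sum of all gene counts, and RPKM also by merged exon length of the GENCODE models. Relations used log2 CPM with a prior count of 2 and 100000 permutations, two-sided. DESeq2 and other settings were alternatives. The code was tested on simulated data. Named were all 10 genes, the pathway genes called or with the 3 smallest p, and the 5 genes most like Tlr3, Tlr7 and Irak4. Genes and lists were chosen with earlier results of these data known. Symbols matched 49412 of 49671 gene identifiers.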

Additional observations from a re-analysis of the deposited data

Results flagged for a closer look

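Of 80 groups of 4 libraries, 10 genes in 8 groups, 4 held a library far from the other three in CPM, where chance gives about 1 in 20. Tlr2 in untreated cultures at 6 h was at 1.59 CPM in replicate 4 and at 0.519 to 0.543 in the rest. Tlr4 with Mut.oligo at 6 h was at 0.632 CPM in replicate 4, the others lying between 0.167 and 0.245. Tlr8 with miR-92a-1-5p at 5 d was at 0.111 CPM in replicate 4 against 0.289 to 0.315. Irak4 with miR-124-5p at 5 d was at 1.58 CPM in replicate 2 against 1.10 to 1.15.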

How the results depend on the processing

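No member was called with an oligoribonucleotide in any of the 13 comparisons with the experiment batch, a replicate block, DESeq2, RLE size factors, other filters or no minimum fold, which always gave 0 (smallest adjusted p 0.330). Only the groups compared, DESeq2 with batch and leaving out 1 library, run for the 10 comparisons within a time, also gave 0 in each. Not every member could be tested in every setting. With at least 10 counts in every library, Tlr8, Tlr9, Tlr4, Tlr13 and Irak4 dropped out at 6 h, and Tlr8 and Tlr9 at 5 d. Tlr8 at 6 h also dropped out of some runs without 1 library. The replicate numbers were not taken as pairs, since not every same-numbered pair had a correlation of deviations above 0.1 (5 of 24 at 6 h and 13 of 24 at 5 d). At 5 d, 13 of the 24 also shared a batch, and 10 of these 13 were above 0.1, against 3 of the other 11. For untreated cultures at 5 d against 6 h, 6 members were called, 6 with a replicate block, 7 with DESeq2 and 3 of the 5 tested with at least 10 counts in every library. Leaving out 1 library gave 4 to 9, with 4 without replicate 3 at 6 h or replicate 1 at 5 d, and 9 without replicate 2 at 5 d. Of the 3 members related to Csf1r at 6 h, 0 remained as deviations from batch means and 0 without the 2 farthest libraries. With total counts in place of TMM, 3 were called. The 4 at 5 d became 1 as deviations from batch means, 1 over batch means and 0 without the 2 farthest libraries. They became 6 with total counts in place of TMM, among them Tlr3 (r = 0.59, permutation test, adjusted p = 0.0304) and Tlr8 (r = 0.56, permutation test, adjusted p = 0.0411). With astrocyte markers in place of Csf1r, chosen after seeing the data, they became 7. The cause was not tested. The r of Tlr3 with Csf1r at 5 d became -0.51 as deviations from batch means. The log2 fold change of Tlr7 changed sign without 1 library in 2 comparisons: with miR-92a-1-5p at 6 h it ranged from -0.33 to 0.048, the latter without untreated replicate 4, and with miR-124-5p at 5 d from -0.24 to 0.0027, the latter without untreated replicate 3. The call of Tlr7 between the times was also lost with no filter on low counts and with only the 2 groups compared. Low counts limit Tlr8 and Tlr9 at 6 h.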
